A study of Mus musculus with 8 samples.

Results

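Collagen chain genes encode the polypeptides that assemble into collagens, the main structural proteins of the extracellular matrix. They were taken as every gene of the count table whose symbol is Col, a number, the letter a and a number, which gave 44 of 25413 genes. Expression was measured by RNA sequencing of polyadenylated RNA from spheroids, rounded aggregates grown in 3 dimensions, of a pair of mouse mammary lines. EpH4-AS has the genotype AS-transformed in the labels, and the series' design text calls it malignantly transformed. EpH4 has the genotype WT. The labels give both as epithelial cells of the mammary gland, and what AS stands for is not given in them. Spheroids of each line were treated with PM2.5, the fine fraction of particulate air pollution, or kept as untreated controls. This made 4 groups of 2 libraries, namely EpH4-AS with PM2.5, untreated EpH4-AS, EpH4 with PM2.5 and untreated EpH4. The labels used here give 1 batch and no dose, exposure time or transforming allele. Nothing in them tells if replicate libraries are different cultures, so each p value reflects variation from library to library that could be technical.

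Every collagen molecule is a trimer of chains wound into a helix, and most types need particular partner chains. Fibrillar collagens form the fibres of connective tissue, and collagen IV forms the sheet-like network of the basement membrane, on which mammary epithelium sits. Other types coat fibrils, anchor the basement membrane to the stroma, build beaded filaments or span the cell membrane.

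Total counts per library ran from 15393256 to 18334052 in EpH4-AS and from 24608176 to 27765982 in EpH4. Collagen chain genes held 0.314% and 0.294% of the counts in EpH4-AS with PM2.5, 0.374% and 0.371% in untreated EpH4-AS, 0.594% and 0.628% in EpH4 with PM2.5, and 0.576% and 0.518% in untreated EpH4. Of all reads within genes, 3.39% to 3.59% fell outside exons in EpH4-AS and 11.3% to 12.49% in EpH4. Mitochondrially encoded transcripts took 0.219% to 0.302% of counts in EpH4-AS and 2.21% to 5.03% in EpH4. Of 10 epithelial marker genes, 0 exceeded a mean of 1 CPM (counts scaled to library size) in EpH4-AS and 1, the basal keratin Krt14, did so in EpH4. Their summed level was 0.696 to 1.09 CPM in EpH4-AS and 3.58 to 9.54 CPM in EpH4, with Krt19 and Cldn4 at 0 counts in all 4 groups, so the markers do not bear out the epithelial label. Summed fibroblast markers stood at 385 to 522 CPM in EpH4-AS, with Thy1 at 0 counts, and at 1389 to 1748 CPM in EpH4. The part of these differences in the collagen results was not tested. Adipocyte markers summed to 1101 to 1373 CPM in EpH4-AS and 142 to 171 CPM in EpH4, with the defining marker Adipoq at 1 read over all 8 libraries. Immune markers summed to 37.5 to 41.2 CPM in EpH4-AS and 172 to 220.1 CPM in EpH4, nearly all of it Cd68, with Cd3e at 0 counts. Chondrocyte markers summed to 2.28 to 3.54 CPM in EpH4-AS and 140.1 to 162 CPM in EpH4, where nearly all of it was Sox9. In each group only 1 of the 5 chondrocyte markers exceeded a mean of 1 CPM, and Matn3 and Hapln1 had 0 counts in EpH4. Endothelial markers summed to 1.09 CPM at most, and smooth muscle markers to 13.9 to 19.5 CPM over both lines. The part of these lists was not tested either.

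All 44 collagen genes had a read in at least 1 library, and 29 passed the filter on low counts. Of these, 6 passed only through the EpH4 libraries (Col1a1, Col2a1, Col4a3, Col4a4, Col14a1 and Col23a1) and 1 only through the EpH4-AS libraries (Col8a2). The other 15 were not tested, since none of them had more than 9 reads in a library or 22 reads in all. They were Col6a4, Col6a5, Col6a6, Col9a1, Col9a2, Col10a1, Col11a1, Col13a1, Col15a1, Col19a1, Col22a1, Col24a1, Col25a1, Col26a1 and Col28a1. Among them Col13a1, a transmembrane collagen, had 0 reads in untreated EpH4-AS and 16 in untreated EpH4, at least 3.28-fold lower against a floor of 3 counts over the group. Col26a1 had 12 reads in EpH4-AS with PM2.5 and 1 in EpH4 with PM2.5. This was a 17.1-fold higher level with an exact 95% counting interval from 2.53 to 729.6. In the untreated groups Col26a1 had 5 reads in EpH4-AS and 4 in EpH4.

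Levels of different chains were compared with the deposited RPKM, reads scaled to exon length and to library size. By this measure the leading collagens differed between the lines. Collagen VI chains made up 43.5 ± 0.61% of the summed collagen RPKM in EpH4-AS with PM2.5, 39.98 ± 0.0625% in untreated EpH4-AS, 15.4 ± 0.414% in EpH4 with PM2.5 and 16.9 ± 0.995% in untreated EpH4 (SD, n = 2). Collagen IV chains made up 5.38 ± 0.179% in EpH4-AS with PM2.5, 5.34 ± 0.153% in untreated EpH4-AS, 27.8 ± 0.257% in EpH4 with PM2.5 and 26.05 ± 0.0412% in untreated EpH4. The share of fibrillar chains was closer, at 30.4 ± 0.729% in EpH4-AS with PM2.5, 34.7 ± 0.619% in untreated EpH4-AS, 28.5 ± 0.717% in EpH4 with PM2.5 and 28.6 ± 0.334% in untreated EpH4, but it was held by different genes. In untreated EpH4-AS the leading chains were Col6a1 with 31.3 ± 0.109%, Col5a1 with 19.6 ± 0.661%, Col16a1 with 11.3 ± 0.0828% and Col5a2 with 11.2 ± 0.132%. In untreated EpH4 they were Col1a2 with 22.4 ± 0.22%, Col18a1 with 21.4 ± 0.837%, Col4a1 with 10.7 ± 0.675% and Col6a1 with 8.19 ± 0.823%. The leading chain was the same with PM2.5 as without in each line, Col6a1 at 35.3 ± 0.26% in EpH4-AS and Col1a2 at 21.7 ± 0.187% in EpH4. In bulk RNA, fewer cells of a type and less RNA per cell cannot be told apart.

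**Figure D1:**
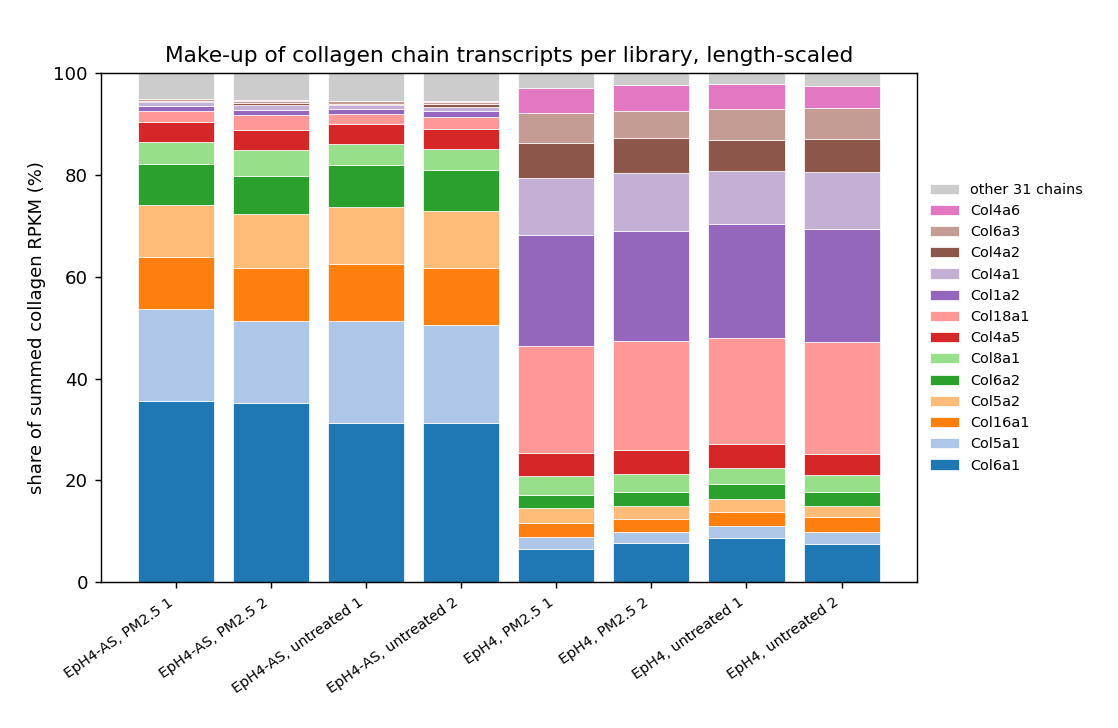
Share of the summed collagen RPKM (%) held by 13 chains and by the other 31 chains together, 1 bar per library, EpH4-AS on the left and EpH4 on the right. Col6a1, Col5a1, Col16a1 and Col5a2 fill most of each EpH4-AS bar, and Col18a1, Col1a2, Col4a1 and Col4a2 most of each EpH4 bar.

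The untreated lines were compared to ask which genes differ in the transformed cells, with counts scaled by TMM and the edgeR quasi-likelihood test, from which all adjusted p values below come unless another tool is named. Levels below are TMM-normalised CPM, and log2 fold changes carry their standard error. All 29 tested collagen genes were called at an adjusted p under 0.05, 11 higher and 18 lower in EpH4-AS, where 89.2% of all tested genes were called, 43.6% higher and 45.7% lower. A call by itself therefore says little about a collagen gene, and the sizes are what follows. The median log2 fold change was -1.28 over the collagen genes and -0.05 over all genes. 26 of the 29 were called with a change over 2-fold, against 55.2% of all genes, and 14 with a change over 10-fold, against 22.7%. These figures include the 7 genes that passed the filter through 1 line and so had to differ. Among the 22 collagen genes above the filter in both lines, 10 were higher and 12 lower, 19 were called with a change over 2-fold and 9 with a change over 10-fold. Of the 10848 genes above the filter in both lines, 44.7% were called over 2-fold and 8.26% over 10-fold. The median log2 fold change was -0.45 over those 22 collagen genes and 0.05 over those genes in all. A mean of 5 CPM in a group and a call in a comparison were met by 22 collagen genes. All 4 EpH4-AS libraries lay above all 4 EpH4 libraries in 10 of them and below in 12. Among the 12, Col1a1 passed the filter only through EpH4. Such separation goes with a call, and its share over all genes was not counted. The Ensembl identifiers and coordinates below are those of the deposited table, on GRCm39.

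**Figure D2:**
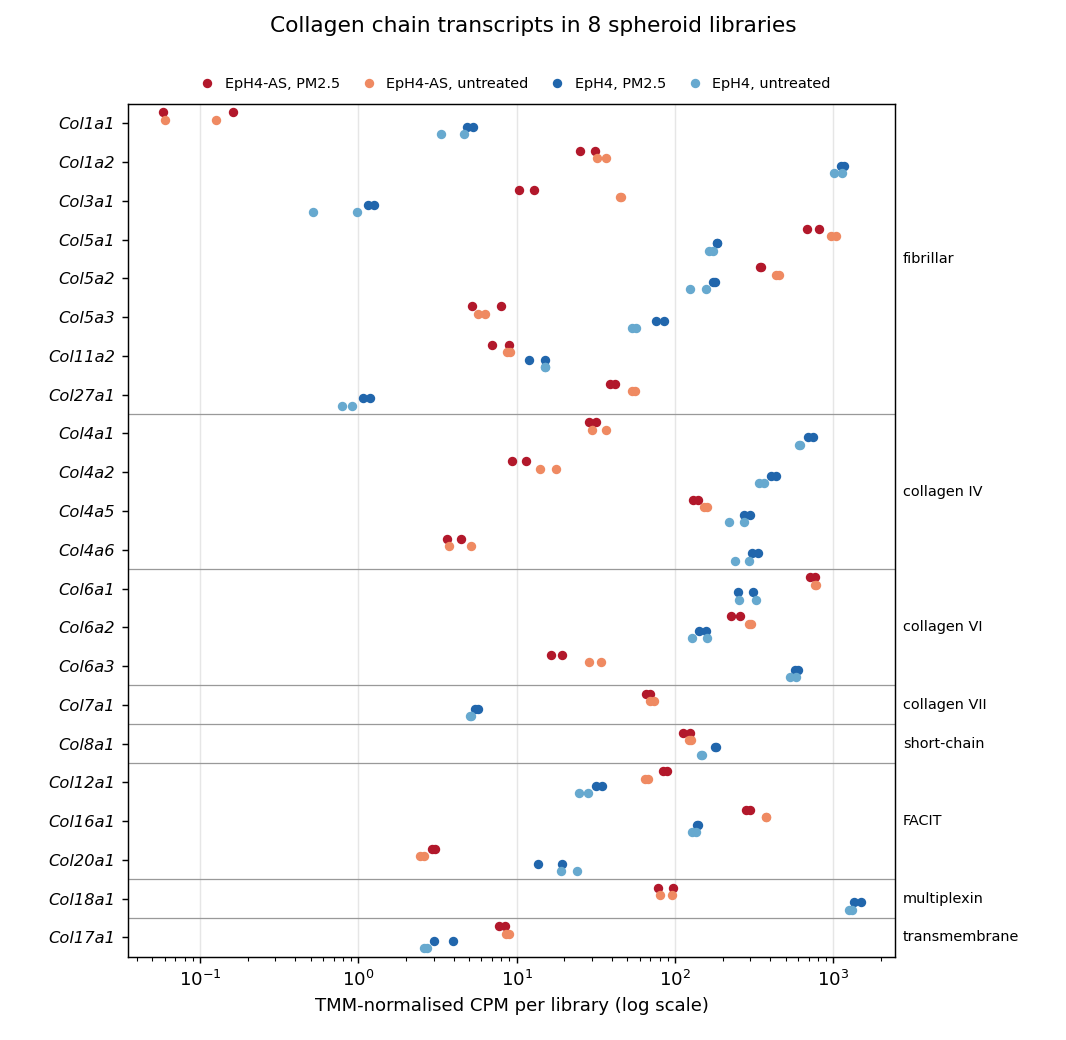
TMM-normalised CPM (log scale) of 22 collagen genes in each of 8 libraries, by family, with 1 point per library. In every row the EpH4-AS points and the EpH4 points do not overlap, which goes with the choice of called genes. The points of PM2.5 and untreated spheroids of a line lie close together except in a few rows such as Col3a1 in EpH4-AS.

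Among fibrillar collagens, 4 of 9 tested genes were higher and 5 lower in untreated EpH4-AS. Of the 5, Col1a1 and Col2a1 passed the filter only through EpH4 and could only be called lower. Collagen I, the main collagen of skin, bone and tendon, is usually built from Col1a1 and Col1a2 chains. Col1a2 (ENSMUSG00000029661, chromosome 6, 4504814 to 4541544) had 25.03 and 31.5 CPM in EpH4-AS with PM2.5, 32.3 and 36.6 CPM in untreated EpH4-AS, 1115 and 1174 CPM in EpH4 with PM2.5, and 1128 and 1006 CPM in untreated EpH4. It was 30.996-fold lower in untreated EpH4-AS (log2 -4.95 ± 0.10, adjusted p = 3.04e-15). Col1a1 (ENSMUSG00000001506, chromosome 11, 94827050 to 94843868), which contributes most chains of the usual collagen I trimer, had 0.0584 and 0.163 CPM in EpH4-AS with PM2.5, 0.0602 and 0.126 CPM in untreated EpH4-AS, 5.30 and 4.85 CPM in EpH4 with PM2.5, and 4.65 and 3.34 CPM in untreated EpH4. It was low in all groups, and in untreated EpH4-AS 3 reads stood against 212 in untreated EpH4, a 43.5-fold lower level with an exact 95% counting interval from 14.7 to 213. Per length, Col1a2 exceeded Col1a1 by 226 and 259.6 times in EpH4 with PM2.5 and by 260.03 and 323 times in untreated EpH4. The EpH4 libraries therefore held abundant Col1a2 transcripts with few of the partner chain. Counting intervals cover counting error only.

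Col3a1 (ENSMUSG00000026043, chromosome 1, 45350698 to 45388866), whose product forms thin fibrils beside collagen I, moved the other way. It had 10.4 and 12.9 CPM in EpH4-AS with PM2.5, 45.3 and 44.96 CPM in untreated EpH4-AS, 1.26 and 1.15 CPM in EpH4 with PM2.5, and 0.982 and 0.517 CPM in untreated EpH4. Its level was 59.04-fold higher in untreated EpH4-AS (log2 5.88 ± 0.17, adjusted p = 1.30e-13). Col27a1 (ENSMUSG00000045672, chromosome 4, 63132241 to 63253228), a fibrillar collagen of cartilage, had 41.5 and 39.1 CPM in EpH4-AS with PM2.5, 53.2 and 55.9 CPM in untreated EpH4-AS, 1.07 and 1.19 CPM in EpH4 with PM2.5, and 0.909 and 0.795 CPM in untreated EpH4. It was 63.4-fold higher in untreated EpH4-AS (log2 5.99 ± 0.12, adjusted p = 3.56e-15), the largest rise among the 29 tested genes. In EpH4 both genes stayed at 1.26 CPM or less in every library.

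The chains of collagen V, which controls the diameter of collagen I fibrils, did not move together. Col5a1 (ENSMUSG00000026837, chromosome 2, 27776437 to 27929526) had 817 and 683 CPM in EpH4-AS with PM2.5, 1039 and 974 CPM in untreated EpH4-AS, 184 and 183 CPM in EpH4 with PM2.5, and 175 and 165 CPM in untreated EpH4, and was higher in untreated EpH4-AS (log2 2.57 ± 0.08, adjusted p = 1.82e-13). Col5a2 (ENSMUSG00000026042, chromosome 1, 45413481 to 45542442), which lies 24614 bases from Col3a1 in tail-to-tail orientation, had 352 and 343 CPM in EpH4-AS with PM2.5, 451 and 436 CPM in untreated EpH4-AS, 178 and 173 CPM in EpH4 with PM2.5, and 157 and 124 CPM in untreated EpH4 and was also higher (log2 1.66 ± 0.08, adjusted p = 3.86e-11). Col5a3 (ENSMUSG00000004098, chromosome 9, 20681346 to 20726363), a chain of restricted tissue distribution, had 5.25 and 7.98 CPM in EpH4-AS with PM2.5, 5.72 and 6.32 CPM in untreated EpH4-AS, 85.4 and 75.5 CPM in EpH4 with PM2.5, and 56.5 and 53.4 CPM in untreated EpH4 and was lower (log2 -3.19 ± 0.13, adjusted p = 4.98e-12). The Col5a1 to Col5a2 ratio of RPKM was 1.78 and 1.73 in untreated EpH4-AS and 0.863 and 1.03 in untreated EpH4. Col11a2 (ENSMUSG00000024330, chromosome 17, 34258411 to 34285659), a chain of the cartilage collagen XI, had 8.93 and 7.003 CPM in EpH4-AS with PM2.5, 9.09 and 8.73 CPM in untreated EpH4-AS, 15.2 and 12.04 CPM in EpH4 with PM2.5, and 15.1 and 15.03 CPM in untreated EpH4 and was lower by a smaller amount (log2 -0.76 ± 0.14, adjusted p = 0.000101). Its partner Col11a1 had no more than 4 reads in any library. Col2a1, the cartilage collagen II, had 3 reads in untreated EpH4-AS and 25 in untreated EpH4 (5.13-fold lower, exact 95% interval 1.57 to 26.6), a call lost without untreated EpH4-AS replicate 1 (adjusted p = 0.0619).

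**Figure D3:**
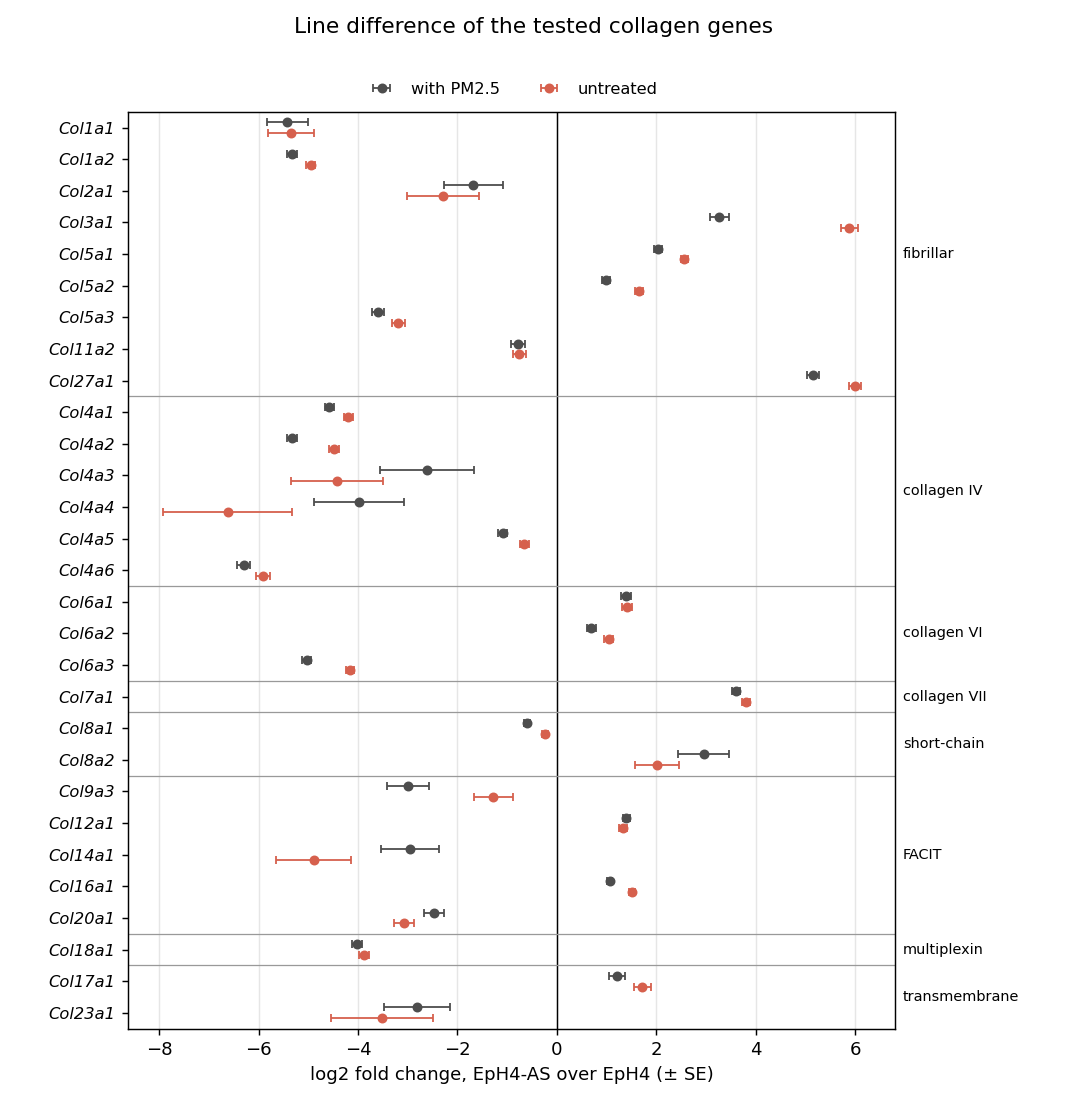
Log2 fold change of EpH4-AS over EpH4 with its standard error for the 29 tested collagen genes, with PM2.5 (dark grey) and untreated (red), by family. All 6 collagen IV genes lie left of 0, among them Col4a3 and Col4a4, which passed the filter only through EpH4. In the untreated lines Col3a1 and Col27a1 lie farthest to the right.

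The 4 collagen IV genes above the filter in both lines, Col4a1, Col4a2, Col4a5 and Col4a6, were all lower in untreated EpH4-AS, with a median log2 fold change of -4.34. Col4a3 and Col4a4 passed the filter only through EpH4 and could only be called lower. They sit as head-to-head pairs, and per the annotation in the deposited table Col4a1 and Col4a2 overlap by 22 bases on opposite strands of chromosome 8. Col4a3 and Col4a4 are 71 bases apart on chromosome 1, and Col4a5 and Col4a6 1308 bases apart on chromosome X. The kit marks the strand, but whether counting used it is not given in the sources used here, so reads in the overlap of Col4a1 and Col4a2 may be shared. The start regions of the chromosome 8 and chromosome X pairs are shown because the first pair moved together and the other did not. They run from 250 bases before to 50 bases after each start (RefSeq, GRCm38.p6), Col4a1 at chr8:11312777-11313076 on the minus strand, Col4a2 at chr8:11312555-11312854 on the plus strand, Col4a6 at chrX:141474027-141474326 on the minus strand and Col4a5 at chrX:141475169-141475468 on the plus strand. Capitals mark the 78 bases that the Col4a1 and Col4a2 windows share on opposite strands, and the windows of Col4a6 and Col4a5 are 842 bases apart and share none.
Col4a1: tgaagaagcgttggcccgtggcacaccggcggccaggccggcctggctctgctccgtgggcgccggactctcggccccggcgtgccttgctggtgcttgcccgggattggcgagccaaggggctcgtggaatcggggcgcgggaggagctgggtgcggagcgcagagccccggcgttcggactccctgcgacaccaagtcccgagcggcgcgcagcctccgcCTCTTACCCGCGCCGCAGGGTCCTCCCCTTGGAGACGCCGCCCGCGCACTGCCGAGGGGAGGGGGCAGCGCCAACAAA
Col4a2: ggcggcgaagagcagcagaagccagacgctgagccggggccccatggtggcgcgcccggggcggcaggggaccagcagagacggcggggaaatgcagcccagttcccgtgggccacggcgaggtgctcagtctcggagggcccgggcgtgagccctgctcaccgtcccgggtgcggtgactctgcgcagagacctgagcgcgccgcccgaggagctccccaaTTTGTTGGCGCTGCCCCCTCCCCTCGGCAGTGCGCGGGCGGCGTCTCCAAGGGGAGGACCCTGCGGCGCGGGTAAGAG
Col4a6: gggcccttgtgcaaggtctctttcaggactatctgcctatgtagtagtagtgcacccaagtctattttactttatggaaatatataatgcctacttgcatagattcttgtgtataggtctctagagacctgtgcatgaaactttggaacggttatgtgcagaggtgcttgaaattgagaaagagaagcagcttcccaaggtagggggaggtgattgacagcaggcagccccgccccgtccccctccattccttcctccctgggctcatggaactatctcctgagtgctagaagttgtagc
Col4a5: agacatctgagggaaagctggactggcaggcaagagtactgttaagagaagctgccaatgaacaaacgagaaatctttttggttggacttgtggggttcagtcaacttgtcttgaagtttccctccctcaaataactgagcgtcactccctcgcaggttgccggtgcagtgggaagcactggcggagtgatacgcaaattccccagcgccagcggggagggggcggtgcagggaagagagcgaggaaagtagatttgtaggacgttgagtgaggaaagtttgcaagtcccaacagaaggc
The GC content was 74% and 73.7% in the Col4a1 and Col4a2 windows and 48.3% and 52.7% in the Col4a6 and Col4a5 windows, against a median of 52.7% over 32851 such windows. GGGCGG, the core of a GC box, matched on either strand 1 time in the windows of Col4a1, Col4a6 and Col4a5 and 3 times in that of Col4a2, and 35.7% of all windows hold it. CCAAT matched 1 time in each of Col4a1, Col4a2 and Col4a5 and 0 times in Col4a6 (37.4% of all windows), and TATAAA matched none of the 4 (13.6%). A match is only a match of letters.

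Col4a1 (ENSMUSG00000031502, chromosome 8, 11248423 to 11362826) and Col4a2 (ENSMUSG00000031503, chromosome 8, 11362805 to 11499287) encode the chains of the collagen IV found in nearly all basement membranes. Col4a1 had 28.6 and 31.8 CPM in EpH4-AS with PM2.5, 30.1 and 36.9 CPM in untreated EpH4-AS, 693 and 749 CPM in EpH4 with PM2.5, and 616 and 609 CPM in untreated EpH4, 18.3-fold lower in untreated EpH4-AS (log2 -4.19 ± 0.08, adjusted p = 3.48e-15). Col4a2 had 9.34 and 11.4 CPM in EpH4-AS with PM2.5, 13.97 and 17.6 CPM in untreated EpH4-AS, 404 and 432 CPM in EpH4 with PM2.5, and 366 and 339 CPM in untreated EpH4, 22.3-fold lower (log2 -4.48 ± 0.09, adjusted p = 4.79e-15). The RPKM ratio of Col4a1 to Col4a2 was 2.96 and 2.69 in EpH4-AS with PM2.5, 2.08 and 2.02 in untreated EpH4-AS, 1.66 and 1.68 in EpH4 with PM2.5 and 1.63 and 1.74 in untreated EpH4. The ratio was highest in EpH4-AS with PM2.5, and only the ranges of the EpH4 groups overlapped. These ratios are given as values, with no test.

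Col4a5 (ENSMUSG00000031274, chromosome X, 140258381 to 140472230) and Col4a6 (ENSMUSG00000031273, chromosome X, 139948399 to 140257072) encode chains that assemble together in the basement membranes of skin, smooth muscle and kidney. Col4a6 had 3.62 and 4.45 CPM in EpH4-AS with PM2.5, 3.73 and 5.19 CPM in untreated EpH4-AS, 307 and 333 CPM in EpH4 with PM2.5, and 295 and 239 CPM in untreated EpH4, 60.02-fold lower in untreated EpH4-AS (log2 -5.91 ± 0.14, adjusted p = 1.32e-14). Col4a5 had 139 and 130.1 CPM in EpH4-AS with PM2.5, 159.9 and 153 CPM in untreated EpH4-AS, 274 and 299 CPM in EpH4 with PM2.5, and 274 and 218 CPM in untreated EpH4, only 1.57-fold lower (log2 -0.65 ± 0.09, adjusted p = 4.36e-06). The neighbouring genes had nearly equal RPKM in EpH4, with a Col4a5 to Col4a6 ratio of 0.907 and 0.914 with PM2.5 and 0.945 and 0.929 untreated, and a ratio of 39.2 and 29.7 in EpH4-AS with PM2.5 and 43.6 and 30.02 in untreated EpH4-AS. Col4a3 and Col4a4, the chains of the mature glomerular basement membrane, were scarce everywhere. Col4a4 had 0 reads in untreated EpH4-AS and 30 in untreated EpH4, at least 6.16-fold lower against a floor of 3 counts over the group. Col4a3 had 1 read in untreated EpH4-AS and 41 in untreated EpH4 (25.2-fold lower, exact 95% interval 4.28 to 1021).

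**Figure D4:**
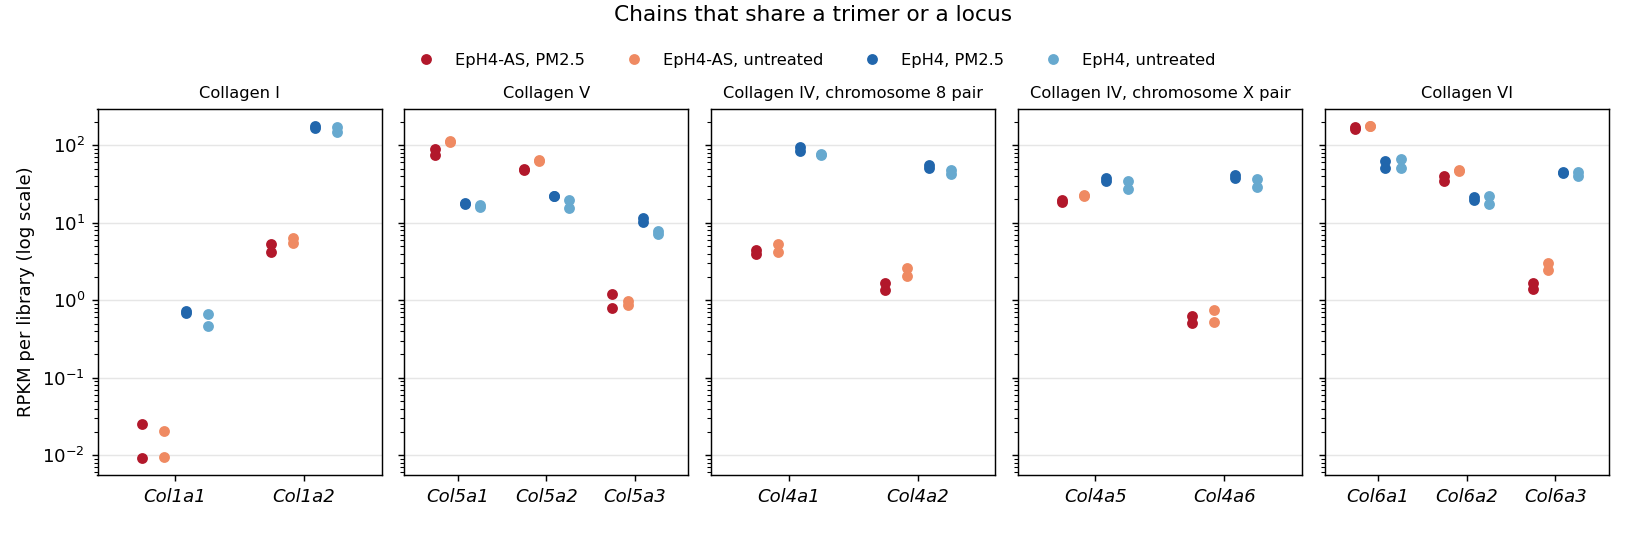
RPKM (log scale) of chains that form a trimer together or lie side by side in the genome, 1 point per library, in the order EpH4-AS with PM2.5, untreated EpH4-AS, EpH4 with PM2.5 and untreated EpH4. Col4a1 and Col4a2 are low together in EpH4-AS, whereas Col4a6 and Col6a3 lie far below Col4a5 and Col6a1 in EpH4-AS alone.

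Collagen VI, which forms beaded filaments around cells, is built from Col6a1, Col6a2 and a chain such as Col6a3. Col6a1 (ENSMUSG00000001119, chromosome 10, 76544626 to 76562002) had 765 and 708 CPM in EpH4-AS with PM2.5, 775 and 766 CPM in untreated EpH4-AS, 251 and 309 CPM in EpH4 with PM2.5, and 326 and 255 CPM in untreated EpH4, 2.65-fold higher in untreated EpH4-AS (log2 1.41 ± 0.10, adjusted p = 5.10e-09). Col6a2 (ENSMUSG00000020241, chromosome 10, 76431596 to 76459464) had 258 and 225 CPM in EpH4-AS with PM2.5, 302 and 292 CPM in untreated EpH4-AS, 142 and 157 CPM in EpH4 with PM2.5, and 160.03 and 128 CPM in untreated EpH4, 2.06-fold higher (log2 1.04 ± 0.09, adjusted p = 3.62e-08). Col6a3 (ENSMUSG00000048126, chromosome 1, 90693645 to 90771693) went the other way and had 16.5 and 19.4 CPM in EpH4-AS with PM2.5, 28.5 and 33.96 CPM in untreated EpH4-AS, 595 and 576 CPM in EpH4 with PM2.5, and 581 and 533 CPM in untreated EpH4, 17.9-fold lower (log2 -4.16 ± 0.08, adjusted p = 3.90e-15). The RPKM ratio of Col6a1 to Col6a3 was 123 and 96.7 in EpH4-AS with PM2.5, 72.02 and 59.7 in untreated EpH4-AS, 1.12 and 1.42 in EpH4 with PM2.5 and 1.48 and 1.27 in untreated EpH4. Col6a4, Col6a5 and Col6a6, whose chains can stand in for that of Col6a3, had at most 8, 1 and 2 reads in any library.

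The remaining families were led by a few genes. Col18a1 (ENSMUSG00000001435, chromosome 10, 76888012 to 77002382), the basement membrane collagen from which endostatin is cut, had 78.6 and 96.6 CPM in EpH4-AS with PM2.5, 80.4 and 95.2 CPM in untreated EpH4-AS, 1351 and 1487 CPM in EpH4 with PM2.5, and 1321 and 1262 CPM in untreated EpH4, 14.7-fold lower in untreated EpH4-AS (log2 -3.88 ± 0.10, adjusted p = 3.33e-14). Col7a1 (ENSMUSG00000025650, chromosome 9, 108782654 to 108813943), the anchoring fibril collagen under stratified epithelia, had 69.8 and 65.3 CPM in EpH4-AS with PM2.5, 73.9 and 69.5 CPM in untreated EpH4-AS, 5.45 and 5.71 CPM in EpH4 with PM2.5, and 5.13 and 5.09 CPM in untreated EpH4, 14.02-fold higher (log2 3.81 ± 0.08, adjusted p = 6.97e-15). Col17a1 (ENSMUSG00000025064, chromosome 19, 47634783 to 47680533), the hemidesmosome collagen, had 7.76 and 8.41 CPM in EpH4-AS with PM2.5, 8.61 and 8.92 CPM in untreated EpH4-AS, 3.01 and 3.99 CPM in EpH4 with PM2.5, and 2.62 and 2.70 CPM in untreated EpH4, 3.29-fold higher (log2 1.72 ± 0.17, adjusted p = 1.35e-07). A collagen of the basement membrane itself was thus lower and both collagens of epithelial attachment were higher. Col8a1 (ENSMUSG00000068196, chromosome 16, 57444621 to 57575100), a short-chain network collagen of vessels and cornea, differed least, with 112 and 125 CPM in EpH4-AS with PM2.5, 123 and 126 CPM in untreated EpH4-AS, 179 and 181 CPM in EpH4 with PM2.5, and 148 and 145 CPM in untreated EpH4 (log2 -0.24 ± 0.06, adjusted p = 0.00112). Its call was lost in limma-trend on log2(RPKM + 1), where the log2 fold change was -0.04 (adjusted p = 0.54) and the median of all genes 0.10. Its partner chain Col8a2 was higher (log2 2.02 ± 0.44, adjusted p = 0.000547) at 17 and 16 reads in untreated EpH4-AS against 7 and 6 in untreated EpH4.

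FACIT collagens attach to the surface of fibrils, and of 5 tested genes 2 were higher and 3 lower in untreated EpH4-AS. Of the 3, Col14a1 passed the filter only through EpH4 and could only be called lower. Col16a1 (ENSMUSG00000040690, chromosome 4, 129941633 to 129993076), found near fibrils and at epithelial junctions, had 299 and 282 CPM in EpH4-AS with PM2.5, 377 and 375 CPM in untreated EpH4-AS, 141 and 138 CPM in EpH4 with PM2.5, and 136 and 128 CPM in untreated EpH4, 2.84-fold higher (log2 1.51 ± 0.05, adjusted p = 1.04e-12). Col12a1 (ENSMUSG00000032332, chromosome 9, 79506273 to 79626113), a collagen of dense connective tissue, had 89.3 and 84.6 CPM in EpH4-AS with PM2.5, 68.03 and 64.8 CPM in untreated EpH4-AS, 34.4 and 31.8 CPM in EpH4 with PM2.5, and 24.8 and 28.1 CPM in untreated EpH4, 2.52-fold higher (log2 1.33 ± 0.07, adjusted p = 1.69e-10). Both genes were thus higher in EpH4-AS, unlike Col20a1, Col9a3 and Col14a1. Col20a1 (ENSMUSG00000016356, chromosome 2, 180628328 to 180660156) had 2.92 and 3.04 CPM in EpH4-AS with PM2.5, 2.59 and 2.47 CPM in untreated EpH4-AS, 19.3 and 13.7 CPM in EpH4 with PM2.5, and 18.98 and 23.9 CPM in untreated EpH4, 8.45-fold lower (log2 -3.08 ± 0.21, adjusted p = 1.61e-09), and 42.3% of its gene reads in untreated EpH4-AS and 50.9% in untreated EpH4 lay outside exons. Col9a3, Col14a1 and the transmembrane Col23a1 were lower at few reads. Col14a1 had 1 read in untreated EpH4-AS and 57 in untreated EpH4 (35.1-fold lower, exact 95% interval 6.05 to 1410), and Col23a1 had 1 in untreated EpH4-AS and 22 in untreated EpH4 (13.5-fold lower, 2.19 to 559). Of the Col23a1 gene reads in untreated EpH4, 84.9% lay outside exons. The Col9a3 call was lost without untreated EpH4-AS replicate 2 (adjusted p = 0.0659). Leaving out a library moved the log2 values of genes at 1 read by over 1.5 times. They went to -7.12 for Col4a3 and -7.59 for Col14a1 without untreated EpH4-AS replicate 1, and to -6.23 for Col23a1 without replicate 2. The untreated EpH4-AS library left had 0 reads of each gene, so these values are not measured folds.

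The lines were then compared with PM2.5 in both. All 29 genes were called again, 11 higher and 18 lower in EpH4-AS, where 89% of all genes were called, 43.5% higher and 45.5% lower. The median log2 fold change was -1.68 over the collagen genes and -0.04 over all genes. Col27a1 (5.15 ± 0.12), Col7a1 (3.60 ± 0.08) and Col3a1 (3.27 ± 0.19) had the highest log2 fold changes, and Col4a6 (-6.30 ± 0.14), Col1a1 (-5.43 ± 0.41), Col1a2 (-5.34 ± 0.10) and Col4a2 (-5.33 ± 0.10) the lowest. Col1a1 passed the filter only through EpH4 and could only be called lower, at 4 reads in EpH4-AS with PM2.5 against 257 in EpH4 with PM2.5. Its log2 value ran from -6.31 to -4.91 with 1 library left out. 25 of the 29 were called with a change over 2-fold, against 53.9% of all genes, and 11 with a change over 10-fold, against 22.2%. Among the 22 genes above the filter in both lines, 18 were over 2-fold and 9 over 10-fold, with a median log2 fold change of -0.69, against 42.9%, 7.9% and 0.07 over all such genes. Col3a1 was 9.62-fold higher in EpH4-AS with PM2.5, against 59.04-fold higher in untreated EpH4-AS. With PM2.5, Col4a3 had 2 reads in EpH4-AS against 19 in EpH4 and lost its call without EpH4-AS PM2.5 replicate 2 (log2 -1.64, adjusted p = 0.133). Without EpH4-AS PM2.5 replicate 1 its log2 value was -6.07, and that of Col4a4 was -6.57, against -2.62 and -3.99 with all libraries. The EpH4-AS PM2.5 library left had 0 reads of both genes, so -6.07 and -6.57 are not measured folds. Col2a1 lost its call without EpH4 PM2.5 replicate 1 (adjusted p = 0.0725) and without EpH4-AS PM2.5 replicate 2 (adjusted p = 0.118).

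Within EpH4-AS, PM2.5-exposed spheroids were set against untreated ones to ask what exposure changes in the transformed line. Of 29 collagen genes, 1 rose and 8 fell, where 11.1% of all genes were called, 6.39% higher and 4.75% lower. Col3a1 had 10.4 and 12.9 CPM in EpH4-AS with PM2.5, against 45.3 and 44.96 CPM in untreated EpH4-AS, so that the exposed libraries were well below the untreated ones (fell by 1.95 ± 0.12 on the log2 scale, adjusted p = 1.52e-07). Col6a3 had 16.5 and 19.4 CPM in EpH4-AS with PM2.5, against 28.5 and 33.96 CPM in untreated EpH4-AS (log2 -0.80 ± 0.10, adjusted p = 0.000237), and Col4a2 had 9.34 and 11.4 CPM in EpH4-AS with PM2.5, against 13.97 and 17.6 CPM in untreated EpH4-AS (log2 -0.60 ± 0.13, adjusted p = 0.0086). The other 5 that fell were Col27a1 (-0.44 ± 0.07), Col5a1 (-0.43 ± 0.07), Col16a1 (-0.37 ± 0.05), Col5a2 (-0.35 ± 0.08) and Col6a2 (-0.30 ± 0.09), with adjusted p from 0.000419 to 0.0449. In each of these 8 genes both exposed libraries lay below both untreated ones. This goes with their choice by a call, and its share over all genes was not counted. The change of Col3a1 was the only called one over 2-fold, against 0.802% of all genes, and none was over 10-fold, against 0.0948%. Col12a1 rose, with 89.3 and 84.6 CPM in EpH4-AS with PM2.5, against 68.03 and 64.8 CPM in untreated EpH4-AS (log2 0.39 ± 0.07, adjusted p = 0.00258). The 4 fibrillar genes that fell were Col3a1, Col5a1, Col5a2 and Col27a1. Summed fibroblast markers were 390 and 385 CPM in EpH4-AS with PM2.5 against 522 and 519 CPM in untreated EpH4-AS. Most of each sum was Dcn, with 271 ± 3.38 CPM in EpH4-AS with PM2.5 and 392 ± 2.60 CPM in untreated EpH4-AS (SD, n = 2). Of the 7 tested fibroblast markers, 2 were called lower and 5 were not called. Adipocyte markers summed to 1108 and 1101 CPM in EpH4-AS with PM2.5 against 1373 and 1331 CPM in untreated EpH4-AS, with all 3 tested members called lower. The part of either list in the result was not tested.

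Col6a1 (log2 -0.06 ± 0.10), Col18a1 (87.6 CPM in exposed and 87.8 CPM in untreated EpH4-AS on average), Col4a1 (-0.15 ± 0.09) and Col7a1 (-0.09 ± 0.06) did not pass the test in EpH4-AS. Across the 29 genes the median log2 fold change was -0.11, against 0.00 over all genes. The calls of Col3a1, Col6a3 and Col16a1 held in every alternative run. Those of Col5a2 and Col6a2 were lost without each of the 4 EpH4-AS libraries, with adjusted p of 0.0712 to 0.137 and 0.0625 to 0.374, and the log2 value of Col6a2 was -0.19 without PM2.5 replicate 2. With adjusted p in brackets, Col4a2 lost its call without untreated replicate 2 (0.156) and without PM2.5 replicate 1 (0.105), Col5a1 without untreated replicate 1 (0.065), and Col27a1 and Col12a1 without untreated replicate 2 (0.0544 and 0.0559). Without untreated EpH4-AS replicate 2, 4 of the 29 genes were called, and without untreated replicate 1 or PM2.5 replicate 1, 6 were. Of all genes, 2.79%, 2.65% and 4.99% were called in these fits, against 11.1% with all libraries.

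Within EpH4, 7 of 29 collagen genes rose with PM2.5 and 0 fell, where 27.2% of all genes were called, 14.3% higher and 12.9% lower. The count of calls is thus close to the background. Col5a3 had 85.4 and 75.5 CPM in EpH4 with PM2.5, against 56.5 and 53.4 CPM in untreated EpH4 (log2 0.55 ± 0.09, adjusted p = 0.000469), and Col8a1 had 179 and 181 CPM in EpH4 with PM2.5, against 148 and 145 CPM in untreated EpH4 (log2 0.30 ± 0.05, adjusted p = 0.0012). Col12a1, the gene that also rose in EpH4-AS, had 34.4 and 31.8 CPM in EpH4 with PM2.5, against 24.8 and 28.1 CPM in untreated EpH4 (log2 0.33 ± 0.07, adjusted p = 0.00499). The other 4 that rose were Col5a2 (0.32 ± 0.08), Col4a6 (0.26 ± 0.08), Col4a2 (0.25 ± 0.07) and Col4a1 (0.23 ± 0.07), with adjusted p from 0.00823 to 0.0341. Of the 7, 3 were collagen IV genes, and all 3 calls were lost in limma-trend on log2(RPKM + 1) and on log2(RPKM + 0.1). That of Col4a6 was also lost in the DESeq2 Wald test (adjusted p = 0.331) and in an edgeR fit to the 2 groups alone (adjusted p = 0.104). In all 7 genes both exposed libraries lay above both untreated ones. This goes with their choice by a call, and its share over all genes was not counted. None of the 7 changes reached 2-fold, as 2.81% of all genes did, or 10-fold, as 0.131% did. Col20a1 had a log2 value of -0.37 ± 0.14 (adjusted p = 0.0616) and Col3a1 of 0.66 ± 0.31 (adjusted p = 0.135) at 61 reads in EpH4 with PM2.5 and 40 in untreated EpH4. Mitochondrially encoded transcripts took 4.23% and 5.03% of counts in EpH4 with PM2.5 against 2.72% and 2.21% in untreated EpH4, and their part was not tested.

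The calls of Col12a1 and Col8a1 in EpH4 held in every alternative run. Without untreated EpH4 replicate 2, 4 genes were called, and Col5a2 (log2 0.17, adjusted p = 0.0659), Col4a6 (0.12, adjusted p = 0.275) and Col4a2 (0.0771) were not. Without PM2.5 replicate 2, 4 were called, and Col4a1 (adjusted p = 0.132), Col4a2 (0.105) and Col4a6 (0.187) were not. Without untreated replicate 1, 11 were called, 10 higher and Col20a1 lower, and the log2 values of Col5a2 and Col4a6 were 0.50 and 0.42. Of all genes, 18% were called without untreated replicate 2, 15.7% without PM2.5 replicate 2 and 28.9% without untreated replicate 1. Col4a6 also lost its call without each EpH4-AS library in turn, with adjusted p of 0.052 to 0.0524.

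**Figure D5:**
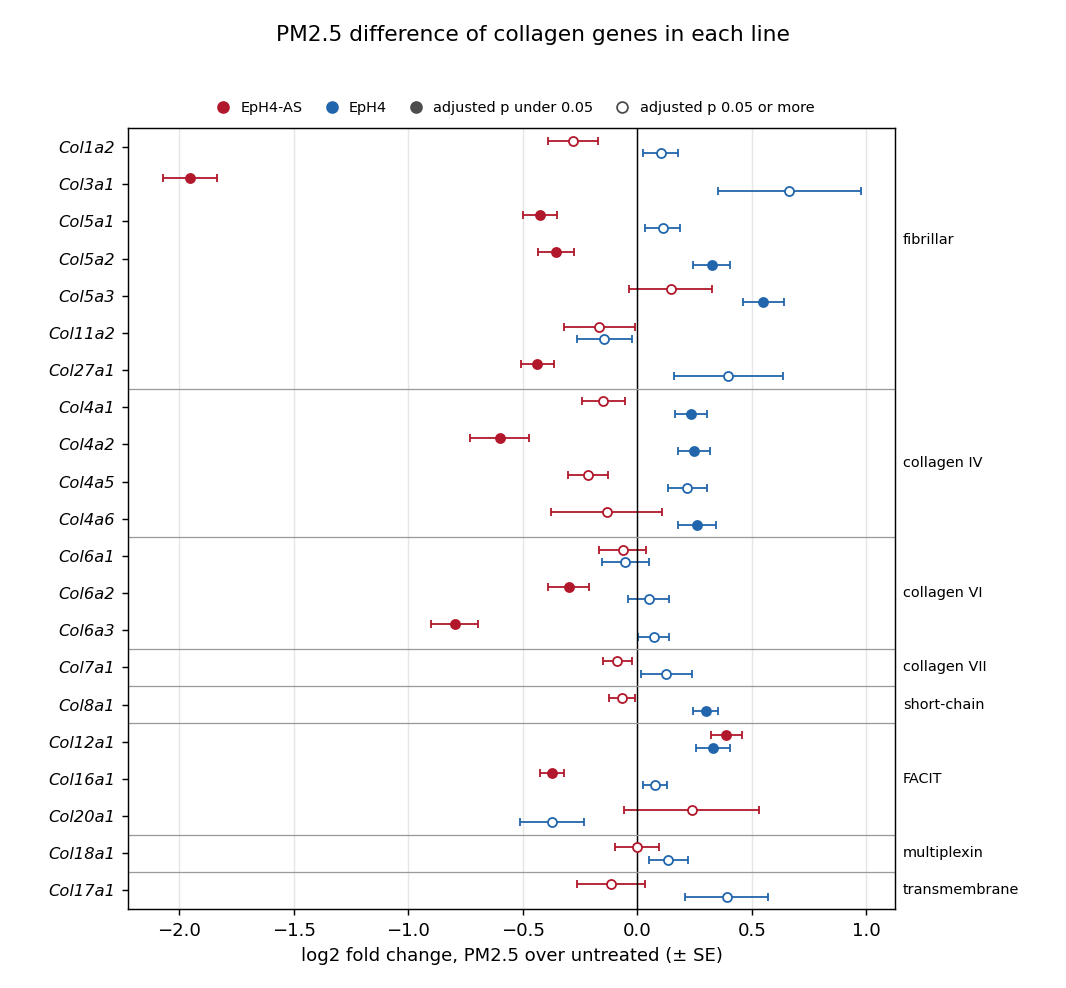
Log2 fold change of PM2.5 over untreated spheroids with its standard error in EpH4-AS (red) and EpH4 (blue) for 21 collagen genes, filled where the adjusted p was under 0.05. Col3a1 in EpH4-AS lies at -1.95, apart from the other points, and Col12a1 is filled to the right of 0 in both lines.

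Whether the PM2.5 change depended on the line was tested with the interaction term, the change in EpH4-AS minus the change in EpH4. It was called in 10 of 29 collagen genes, all negative, where 14.1% of all genes were called, 7.6% positive and 6.49% negative. Of the 10 only Col3a1 was over 2-fold, against 1.74% of all genes, and none was over 10-fold, against 0.16%. The median interaction was -0.36 over the collagen genes and 0.01 over all genes. Col3a1 had the largest of the 10 (log2 -2.62 ± 0.33, adjusted p = 0.000233), followed by Col6a3 (log2 -0.87 ± 0.12, adjusted p = 0.000469) and Col4a2 (log2 -0.85 ± 0.15, adjusted p = 0.00173). Col5a2 (-0.68 ± 0.11) and Col4a2 fell in EpH4-AS and rose in EpH4. Col6a3, Col5a1 (-0.54 ± 0.10), Col16a1 (-0.45 ± 0.07), Col27a1 (-0.83 ± 0.25) and Col3a1 fell in EpH4-AS without passing the test in EpH4. Col4a1 (-0.38 ± 0.12) and Col8a1 (-0.36 ± 0.08) rose in EpH4 without passing it in EpH4-AS, and Col4a5 (-0.43 ± 0.12) passed it in neither line. Col12a1, which rose in both lines, had an interaction of 0.06 ± 0.10 (adjusted p = 0.76).

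The interactions of Col3a1, Col6a3, Col4a2, Col5a2, Col5a1 and Col16a1 were called in every alternative run. That of Col27a1 was lost without each of the 8 libraries (adjusted p of 0.0521 to 0.175). With adjusted p in brackets, Col4a1 lost its call without EpH4 PM2.5 replicate 2 (0.103), untreated EpH4-AS replicate 2 (log2 -0.21, 0.35) and either EpH4-AS PM2.5 library (0.228 and 0.0691). Col4a5 lost it without EpH4 PM2.5 replicate 2 or any EpH4-AS library (0.0679 to 0.144), with a log2 value of -0.28 without untreated EpH4 replicate 2. Col8a1 lost it without either untreated EpH4-AS library or EpH4-AS PM2.5 replicate 1 (0.0549 to 0.0752). Without untreated EpH4-AS replicate 2 or EpH4-AS PM2.5 replicate 1, 6 interactions were called, where 6.59% and 8.11% of all genes were, against 14.1% with all libraries.

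Genes that act on collagen chains were counted from lists, and in the untreated lines the background is again 89.2% of all genes called, 43.6% higher and 45.7% lower. The list counts include genes that passed the filter through 1 line and so had to differ. Such genes were not counted apart. Of 17 tested folding and hydroxylation genes, 12 were higher and 3 lower in untreated EpH4-AS. P3h4, a component of the lysyl hydroxylation complex, averaged 253 ± 1.71 CPM in untreated EpH4-AS and 0.477 ± 0.0571 CPM in untreated EpH4 (SD, n = 2 here and below). Fkbp10, a prolyl isomerase that helps to fold procollagen, averaged 439.9 ± 11.6 CPM in untreated EpH4-AS and had 1 read in untreated EpH4. It passed the filter only through EpH4-AS and could only be called higher. Serpinh1, the collagen chaperone, averaged 1181 ± 14.7 CPM in untreated EpH4-AS and 448 ± 4.67 CPM in untreated EpH4 (log2 1.40 ± 0.05, adjusted p = 1.92e-12). P4ha1, a catalytic subunit of the prolyl hydroxylase that stabilises the helix, fell with PM2.5 in EpH4 (log2 -0.72 ± 0.07, adjusted p = 1.91e-05) and had a log2 value of 0.05 ± 0.08 with PM2.5 in EpH4-AS.

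Of 10 tested processing and crosslinking genes, 5 were higher and 3 lower in untreated EpH4-AS, and the leading ones differed in direction. Adamts14, a protease that removes the amino-terminal propeptide of procollagen, averaged 3.49 ± 0.252 CPM in untreated EpH4-AS and 184 ± 22.4 CPM in untreated EpH4 (log2 -5.72 ± 0.12, adjusted p = 5.92e-15). Pcolce, an enhancer of the removal of the other propeptide, averaged 1369 ± 22.01 CPM in untreated EpH4-AS and 77.3 ± 15.3 CPM in untreated EpH4 (log2 4.14 ± 0.11, adjusted p = 6.52e-14). Lox oxidises lysines for collagen crosslinks, and it averaged 73.3 ± 6.67 CPM in EpH4-AS with PM2.5, 228 ± 11.6 CPM in untreated EpH4-AS, 1892 ± 9.61 CPM in EpH4 with PM2.5 and 1419.6 ± 43.6 CPM in untreated EpH4.

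Of 9 tested basement membrane partners of collagen IV, 7 were higher in untreated EpH4-AS and 1 lower, a number of calls close to the background. Of all genes, 43.6% were called higher and 45.7% lower. The 4 collagen IV genes above the filter in both lines were lower. Lama5, a laminin chain, averaged 1816 ± 37.3 CPM in untreated EpH4-AS and 104 ± 1.35 CPM in untreated EpH4. Lama3, another laminin chain, averaged 52.01 ± 4.08 CPM in untreated EpH4-AS and 1.22 ± 0.0773 CPM in untreated EpH4. Of 13 tested regulators of collagen transcription, 3 were higher and 8 lower. Sox9, the regulator of cartilage collagens, averaged 2.75 ± 0.139 CPM in untreated EpH4-AS and 145 ± 8.01 CPM in untreated EpH4. Creb3l1, a membrane-bound transcription factor of collagen-secreting cells, averaged 252 ± 2.96 CPM in untreated EpH4-AS and 3.76 ± 1.21 CPM in untreated EpH4.

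Of 8 tested proteoglycans and organisers, 3 were higher and 5 lower in untreated EpH4-AS. Tnxb, a tenascin that binds fibrils, averaged 197 ± 0.536 CPM in untreated EpH4-AS and 23.1 ± 1.25 CPM in untreated EpH4, and Prelp, a small leucine-rich proteoglycan, averaged 1.84 ± 0.372 CPM in untreated EpH4-AS and 69.4 ± 4.54 CPM in untreated EpH4. With PM2.5 in EpH4-AS, 0 of the 8 rose and 4 fell, where 11.1% of all genes were called and 4.75% were lower. Of 7 collagen receptors, 3 were higher and 4 lower in untreated EpH4-AS, led by Mrc2, an endocytic collagen receptor, at 1.76 ± 0.192 CPM in untreated EpH4-AS and 87.5 ± 4.36 CPM in untreated EpH4, and Itga1, an integrin chain, at 9.15 ± 0.929 CPM in untreated EpH4-AS and 1.22 ± 0.131 CPM in untreated EpH4. Of 5 collagen-degrading proteases, 2 were higher and 2 lower. Mmp9, a gelatinase, averaged 390.3 ± 22.2 CPM in untreated EpH4-AS and 198 ± 6.41 CPM in untreated EpH4. Mmp2, the other gelatinase, had 1 read in untreated EpH4-AS and 403 in untreated EpH4, so it could only be called lower.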

How the data were processed

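Polyadenylated RNA of 8 libraries was sequenced, per the labels, with a stranded kit in 1 batch. The authors deposited raw counts of reads per gene, on GRCm39 per the submitters' processing notes, and RPKM values scaled to exon length and library. Neither aligner nor counter is given in the sources used here. Both deposited count tables held equal values, and RPKM values of both sources agreed within 1e-05.

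Of 25413 genes, 13716 passed filterByExpr (minimum count 10) and held 99.964% of the counts. Counts were fitted in R 4.3.3 with edgeR 4.0.16 (TMM, quasi-likelihood F test, 4 groups, 4 residual degrees of freedom). The same fit was also run on counts simulated with the dispersions estimated from these data. P values were two-sided and adjusted by Benjamini-Hochberg over all tested genes in each of 5 comparisons, with a threshold of 0.05. Standard errors were |log2 fold change| divided by √F. CPM served comparisons between libraries and RPKM those between genes.

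Groups came from the labels. The members and lists were chosen with earlier results of these data known. Genes were given in every library where a group mean reached 5 CPM and a comparison was called, and partner genes were the 2 smallest adjusted p of each list between the untreated lines, plus Lox, Serpinh1, P4ha1 and, as the next after Lox, Pcolce. A fold against 0 counts used 3 counts over the group, and 1 to 3 counts an exact 95% interval. Alternatives were other size factors, the DESeq2 1.42.0 Wald test, no filter, 1 CPM in 2 libraries, a replicate block, 2 groups only, limma-trend (3.58.1) on log2(RPKM + 1) and log2(RPKM + 0.1), and each library left out, with a lone library assumed to vary like the others.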

Additional observations from a re-analysis of the deposited data

Results flagged for a closer look

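A difference between the lines in the PM2.5 change was found by the interaction test of edgeR for 10 collagen genes, each given as the log2 change in EpH4-AS minus the log2 change in EpH4. The values were -2.62 for Col3a1, -0.87 for Col6a3, -0.85 for Col4a2, -0.83 for Col27a1, -0.68 for Col5a2, -0.54 for Col5a1, -0.45 for Col16a1, -0.43 for Col4a5, -0.38 for Col4a1 and -0.36 for Col8a1. Col5a2 had log2 changes of -0.35 ± 0.08 in EpH4-AS and 0.32 ± 0.08 in EpH4, and Col4a2 had -0.60 ± 0.13 in EpH4-AS and 0.25 ± 0.07 in EpH4, each called in both lines. The interaction of Col3a1 rests on 61 reads in EpH4 with PM2.5 and 40 in untreated EpH4 over 2 libraries each, and that of Col27a1 on 57 reads in EpH4 with PM2.5 and 45 in untreated EpH4.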

How the results depend on the processing

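Pairs of a collagen gene and a comparison were called in 84 cases. Of these pairs, 61 were called under every alternative run that tested the gene, and no value reversed its sign. They were 24 of 29 for the untreated lines, 26 of 29 for the lines with PM2.5, 2 of 7 for PM2.5 in EpH4, 3 of 9 for PM2.5 in EpH4-AS and 6 of 10 for the interaction. For PM2.5 in EpH4, 7 genes were called, 4 in a fit to the 2 groups alone, 2 in limma-trend on log2(RPKM + 0.1), and 4 to 11 with 1 library left out. The share of all genes called ran from 15.7% to 28.9% with 1 library left out. For PM2.5 in EpH4-AS 9 were called and 4 to 10 with 1 library left out, where 2.65% to 15.3% of all genes were. For the interaction 10 were called and 6 to 11 with 1 library left out, where 6.4% to 19.2% of all genes were. For the untreated lines 28 to 29 were called with 1 library left out, and for the lines with PM2.5 27 to 29. RPKM shifted the median log2 fold change of all genes between the untreated lines from -0.05 to 0.10 with a pseudocount of 1 and to 0.14 with 0.1. With 1 CPM in 2 libraries as the filter 24 members were tested, and all were called between the lines. Col2a1, Col4a3, Col4a4, Col14a1 and Col23a1 were dropped by this filter, so their pairs were judged on the other runs. DESeq2 called 28 and 27 genes between the untreated lines and the lines with PM2.5, and limma-trend 25 to 28 and 26 to 28, with Col2a1, Col4a4 and Col23a1 among those lost with a pseudocount of 1 in the untreated lines.

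Deviations of same-numbered libraries from their group means correlated between -0.10 and 0.06 over 6 pairs of groups. With 2 libraries a group this cannot tell if same-numbered libraries were prepared together. The main fits used the replicate numbers as names only. With a replicate block 29, 29, 7, 9 and 9 genes were called in the 5 comparisons in the order above, with the interaction of Col27a1 lost (adjusted p = 0.0528, and 0.0766 in DESeq2). A block with the numbers of untreated EpH4 crossed, chosen after seeing the data, called 10 genes for PM2.5 in EpH4. Depth limits Col1a1, Col2a1, Col4a3, Col4a4, Col14a1 and Col23a1, whose folds between the lines rest on 0 to 6 reads a group in EpH4-AS.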
